A study of Mus musculus with 262 samples.

Results

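The amino acid transporter genes described here are the 67 mouse genes whose symbols begin with Slc1a, Slc3a, Slc6a, Slc7a, Slc36a, Slc38a or Slc43a and a number, pseudogenes left out. They were chosen by name from the tables of a study of kidney collecting duct cells. The naming rule uses no measured value, but earlier results of these data were known when it was set. The rule found 67 of 47069 genes in the tables of TPM (transcript levels scaled for gene length and to a fixed total per sample). Of these, 66 stood under such a symbol in the single-cell and the sorted bulk tables, and 64 were among the 24111 genes of a table of read counts. Slc6a21 carried that name in the tubule table alone. The 67 names include Slc36a1os, Slc36a3os, Slc6a19os and Slc7a6os, which are named after a neighbouring gene and are not carriers themselves.

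RNA was sequenced from 262 mouse kidney samples: 235 single cells of the collecting duct and its surroundings, 8 sorted cell fractions and 19 tubules dissected by hand. All mice were males aged 2 months, and the labels name no treatment. The single cells came from C57BL/6 mice, were sorted with DBA, c-Kit, both of these or PNA, and carry the authors' types: 87 type A intercalated, 23 type B intercalated, 74 principal, 19 proximal tubule and 32 non-epithelial cells. Further C57BL/6 cells were sorted for c-Kit (n = 2 samples) or DBA (n = 2) and sequenced in bulk, as were GFP-positive (n = 2) and GFP-negative (n = 2) cells of the strain Atp6v1b1GFP, whose name gives the gene of a proton pump subunit. Of the tubules, all from C57BL/6 mice, 11 were collecting ducts of the cortex (CCD) and 8 were thick ascending limbs of the cortex (cTAL). DBA is a lectin that binds the collecting duct, c-Kit a receptor of intercalated cells and mast cells, and PNA a lectin used for type B intercalated cells. The labels name no animal, so p-values measure the spread between these samples, which may be technical.

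Amino acids filtered by the kidney are taken up again almost entirely by the proximal tubule. Carriers in the brush border (Slc6a19, Slc6a18, Slc6a20, Slc1a1 and the Slc3a1 and Slc7a9 pair) bring them into the cell, and carriers on the blood side (Slc7a7 and Slc7a8, each bound to the heavy chain Slc3a2, and uniporters of the Slc43 family) let them out. Later segments use amino acid carriers for their own growth, for glutamine supply and to hold osmolytes such as taurine and betaine.

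Most of the cells, fractions and tubules carried the markers of their labels. Atp6v1b1 stood at 380.0 and 449 CPM in the GFP-positive and 14.9 and 11.4 in the GFP-negative fraction. CPM are counts scaled to library sizes adjusted by TMM, a normalization between samples. The anion exchanger Slc4a1 reached 1 TPM in 77 of 87 type A cells, pendrin (Slc26a4) in 23 of 23 type B cells, the water channel Aqp2 in 74 of 74 principal cells and Ptprc in 30 of 32 non-epithelial cells. Of the 19 cells labelled proximal tubule, 18 had the phosphate carrier Slc34a1 at 1 TPM and 18 had megalin (Lrp2), and 14 also had Aqp2. Of the 6 listed proximal tubule markers, Slc34a1 and Lrp2 were held by the most cells, and Cubn and Slc22a6 were below 1 TPM in many. Proximal tubule cells 14, 15 and 16 held Slc34a1 at 0.11, 3.7 and 1.35 TPM, Miox at 1.12, 0.21 and 0.36, and Cubn at 0.03 at most. Their Slc22a6 was at 0.07 TPM at most. Cell 14 did hold Slc5a12 at 244.9 and Lrp2 at 31.62 TPM. Cells 15 and 16 held Slc5a12 at 0.04 at most and Lrp2 at 0.02 and 1.72 TPM. Cells held 1092 to 4307 genes at 1 TPM, tubules 7621 to 14004, the c-Kit and DBA fractions 13949 to 14347, and the GFP libraries 35530885 to 40815091 reads in genes. TPM keeps no depth, so a 0 in those tables gives no limit.

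The promoters of Slc3a1 and Slc43a2 are shown because Slc43a2 was higher, and Slc3a1 lower, in both the GFP-positive and the c-Kit fraction described below. Each is the 250 bases before a RefSeq start on build GRCm38.p6, plus strand, at chr17:85028097-85028346 and chr11:75531444-75531693. Capitals mark CAAAGTCCA, a motif of hepatocyte nuclear factor 4, which this Slc43a2 window does not hold. RefSeq has another Slc43a2 window, at chr11:75531862-75532111 (65.6% G or C), which lies inside the gene and is not shown.

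Slc3a1 promoter: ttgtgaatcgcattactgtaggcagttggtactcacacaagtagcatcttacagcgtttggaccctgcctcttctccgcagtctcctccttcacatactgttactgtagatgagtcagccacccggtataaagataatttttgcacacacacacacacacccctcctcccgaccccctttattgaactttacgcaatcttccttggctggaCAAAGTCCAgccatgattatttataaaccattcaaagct

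Slc43a2 promoter: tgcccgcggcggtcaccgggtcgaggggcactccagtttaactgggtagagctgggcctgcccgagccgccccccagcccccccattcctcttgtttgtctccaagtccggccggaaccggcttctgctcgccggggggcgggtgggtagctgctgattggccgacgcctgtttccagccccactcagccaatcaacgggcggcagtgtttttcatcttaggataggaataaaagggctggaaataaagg

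The Slc3a1 window held 45.6% G or C bases and the Slc43a2 window shown 62.8%. CAAAGTCCA, searched on both strands, occurred in 0.384% of 32851 RefSeq promoter windows. Among the 70 windows of the 49 transporter genes with an entry, the Slc3a1 window alone held it. Windows with a match are listed as longer than those shown, that of Slc3a1 at chr17:85028097-85028396, which reaches past the start. TGATGCAA, a motif of the amino acid response factor ATF4, occurred in 0.791% of all windows and in 2 windows of the transporter genes, those of Slc7a11 and Slc7a7. The palindromic motif of hepatocyte nuclear factor 1 occurred in 0.00913% of all windows and in 0 of the transporter genes. A match is a description of letters and not of a bound site.

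Cell types were compared first. Each type is a single group of cells from an unstated number of mice, so no test was made, and a gene was counted for a type where its mean plus 1 TPM was at least 4 times that of every other type (a log2 distance of at least 2). Brush border carriers stood apart in the proximal tubule cells: 8 of the 39 transporter genes that averaged 1 TPM or more in some type passed this distance there, where 4.47% of 15403 genes did. Those 8 genes were Slc7a9, Slc7a13, Slc3a1, Slc6a19, Slc1a1, Slc6a18, Slc6a20a and Slc6a20b. Type A intercalated cells (2.56% of all genes) and principal cells (3.9%) had 0 such transporter genes. Type B cells (2.35%) had 1, the glycine carrier Slc6a9, and non-epithelial cells (6.82%) had 1, the glutamine carrier Slc38a3. Slc6a9 was seen in 1 of 23 type B cells and Slc38a3 in 1 of 32 non-epithelial cells, so each rested on a single cell. When medians over cells replaced the means, the proximal tubule count was 0, the medians of the 8 genes being at most 1.49 TPM. Slc6a20a rested on 1 proximal tubule cell.

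Counted by the type with the highest mean, whatever the distance, 16 of the 39 genes were highest in proximal tubule cells (18.5% of all genes), 8 in type A (16.8%), 6 in principal (25.3%), 5 in non-epithelial (22.0%) and 4 in type B cells (17.4%). A proximal tubule cell held 3 to 15 of the transporter genes at 1 TPM (median 9), against medians of 4 or 5 in the other types. Their summed level had a median of 909 TPM per proximal tubule cell, 408 per type A, 338 per type B, 256 per principal and 378 per non-epithelial cell. Median genes per cell were 3253 in the proximal tubule cells and 2704 to 2924 in the other types, and the part of this gap in the counts was not tested. Of the 66 genes, 23 reached 1 TPM in no cell and 12 in 1 to 5 cells.

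**Figure D1:**
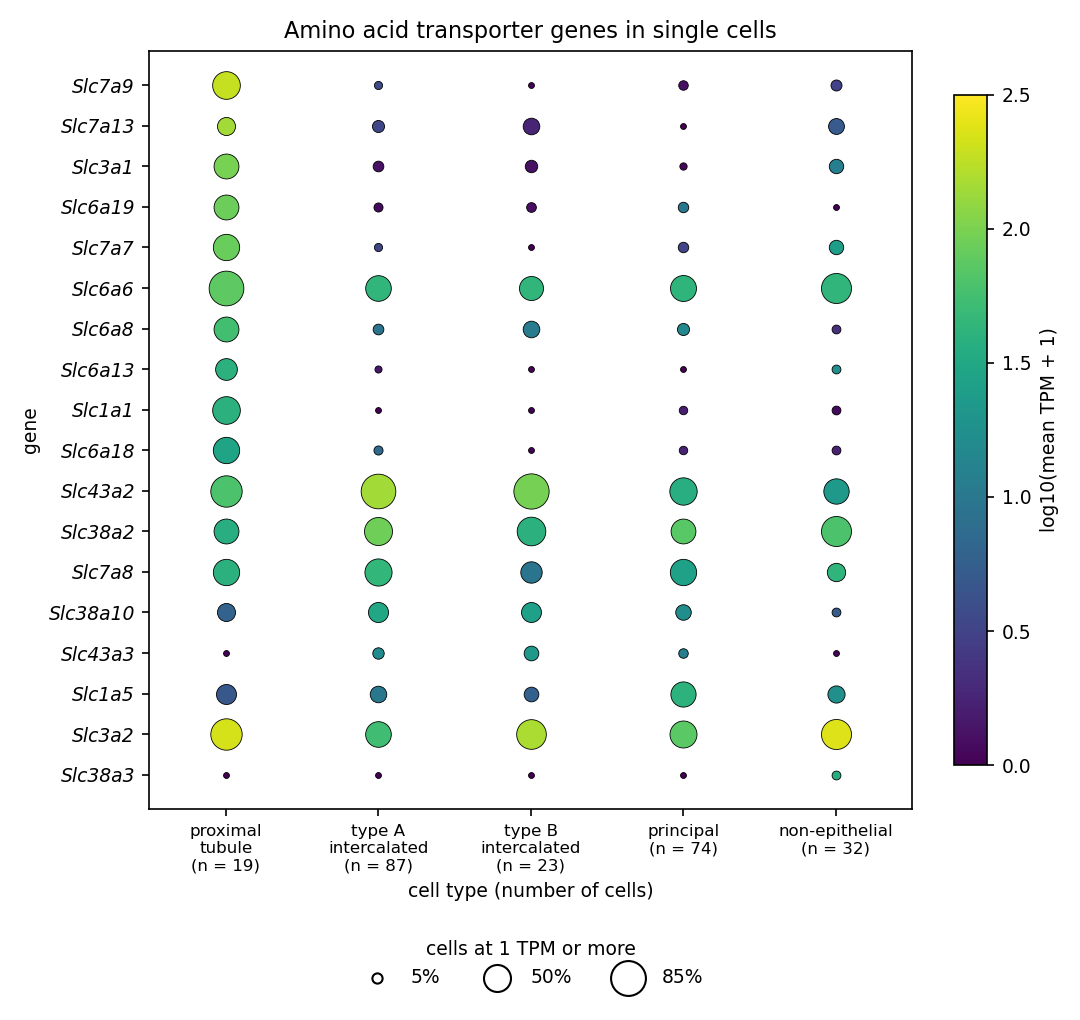
Mean level of the 18 transporter genes that averaged 20 TPM or more in some cell type, by type (horizontal axis). Colour is log10 of the mean TPM plus 1 and dot area the percent of cells at 1 TPM or more; brush border carriers are bright in the proximal tubule column, Slc43a2 in both intercalated columns, and Slc3a2 in every column.

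The cystine and dibasic amino acid pair was the clearest case. Slc7a9, the exchanger for cystine, lysine and arginine, had a mean of 192 TPM in proximal tubule cells (median 1.49, highest cell 1740.0) and was at 1 TPM in 10 of 19 of them (52.6%, interval 28.9% to 75.6%, exact Clopper-Pearson at 95%). It was at 1 TPM in 2 of 87 type A, 0 of 23 type B, 3 of 74 principal and 2 of 32 non-epithelial cells. Slc3a1, the heavy chain that carries Slc7a9 to the membrane, had a mean of 95.7 TPM in proximal tubule cells, 10.5 in non-epithelial cells and at most 0.295 elsewhere. Of the 8 proximal tubule cells with Slc3a1, 7 had Slc7a9 and 4 had Slc7a13, the aspartate and cystine exchanger that also binds Slc3a1. Slc7a13 was concentrated in these 4 cells, at 69.7, 192, 1145 and 1261 TPM, and every proximal tubule cell that had it also had Slc3a1. Outside the proximal tubule, Slc7a13 occurred without Slc3a1 in 5 of its 7 type A cells, 4 of its 4 type B cells and 5 of its 5 non-epithelial cells.

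Carriers of neutral and imino acids were also highest in proximal tubule cells, though partly in cells without Slc3a1 at 1 TPM. Slc6a19, the main carrier of neutral amino acids in the brush border, had a mean of 85.3 TPM in proximal tubule cells (8 of 19 cells) and 9.11 in principal cells (4 of 74). Slc6a18, its relative of the late proximal tubule, had 27.9 TPM (9 of 19 cells) and 6.01 in type A cells (3 of 87). Without the highest cell of each type, these means were 11.6 and 0.324 TPM, and 11.6 would not reach the set distance over 6.01. Slc6a20b reached 1 TPM in 4 of 19 proximal tubule cells and its near copy Slc6a20a in 1 of 19. The Slc6a20b mean of 16.8 TPM was 4.67 without its highest cell. These copies share sequence, so the split of reads between them is uncertain. The glutamate carrier Slc1a1 had 38.3 TPM in proximal tubule cells, where 10 of 19 held it, and at most 0.616 in any other type. Single cells weighed on all these means: without the highest proximal tubule cell, those of Slc7a9, Slc7a13, Slc3a1, Slc6a19 and Slc1a1 were 106, 78.2, 57.1, 51.8 and 22.4 TPM. The creatine carrier Slc6a8 (54.1 TPM) and the betaine and GABA carrier Slc6a13 (38.9 TPM) were also highest there, though the next type, principal for Slc6a8 and non-epithelial for Slc6a13, lay within the set distance. Without their highest cells these means were 20.9 and 25.1 TPM, and the cell highest in Slc6a8 held Slc34a1 at 1.35 and Lrp2 at 1.72 TPM.

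Carriers of the blood side were more widely spread. Slc7a7, the exchanger of dibasic for neutral amino acids, had 83.8 TPM in proximal tubule cells (9 of 19 cells), 23.2 in non-epithelial cells (4 of 32) and at most 2.22 in the others. Slc7a8, the exchanger of neutral amino acids, had 43.4 TPM in type A, 41.6 in non-epithelial, 38.2 in proximal tubule, 25.7 in principal and 8.26 in type B cells. Without the highest cell of each type, the proximal tubule mean was 15.4 and the non-epithelial mean 16.7, below the 20.4 of principal cells. Their heavy chain Slc3a2 was among the highest of all, with 230.0 TPM in non-epithelial, 215 in proximal tubule, 152 in type B, 71.4 in principal and 52.9 in type A cells. The share of cells with Slc3a2 at 1 TPM was highest in the proximal tubule (13 of 19) and lowest in type A (39 of 87). Of the 9 proximal tubule cells with Slc7a7, 8 had Slc3a2, and all 9 with Slc7a8 had it. In type A cells 20 of 44 cells with Slc7a8 had Slc3a2, and in principal cells 20 of 35. The other light chains were rare: Slc7a5, Slc7a6, Slc7a10 and Slc7a11 reached 1 TPM in at most 4 cells of any type.

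Slc43a2 was highest in the intercalated types, short of the set distance. It is a uniporter of branched-chain and aromatic amino acids (ENSMUSG00000038178, chr11:75531694-75577575 on GRCm38). Its mean was 143 TPM (median 57) in type A and 93.9 TPM (median 25.1) in type B cells. Proximal tubule cells had 60.6 TPM (median 3.29; 19.2 without the highest cell), principal cells 36.3 (median 1.17) and non-epithelial cells 21.7 (median 0.59). At 1 TPM it was found in 73 of 87 cells of type A (83.9%, interval 74.5% to 90.9%) and 20 of 23 of type B (87%, interval 66.4% to 97.2%). In principal cells it was held by 38 of 74 (51.4%, interval 39.4% to 63.1%). The intervals cover counting error only and no difference between types was tested. Its relative Slc43a3, a carrier of purine bases, was at 1 TPM in 6 of 87 type A, 3 of 23 type B and 3 of 74 principal cells and in 0 of the others.

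Principal cells had the highest mean of the neutral amino acid exchanger Slc1a5, 39.6 TPM in 32 of 74 cells, against 16.8 (8.78 without its highest cell) in non-epithelial and 8.93 in type A cells. The glutamine carrier Slc38a2 ran from 36.3 TPM in proximal tubule (13.7 without its highest cell) to 87.7 in type A cells and Slc38a10 from 4.09 in non-epithelial to 29.7 in type A cells (0.0558 and 19.4 without the highest cells). Slc38a1, a relative of Slc38a2, was at 1 TPM in 13 of 87 cells of type A against 0 of 23 of type B. The taurine carrier Slc6a6 had means of 41 to 42.3 TPM in 4 types (14.8 to 27.9 without the highest cells) and 74.7 in proximal tubule cells, of which 16 of 19 held it. A single proximal tubule cell at 783 TPM set much of that mean, which was 35.3 without it.

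GFP-positive cells were next set against GFP-negative cells. Of the 64 transporter genes in the count table, 50 had enough counts to be tested with edgeR; 9 were higher in GFP-positive cells and 25 lower at an adjusted p under 0.05, or 68.0% called against 32.6% of the 15671 genes tested (15.2% higher and 17.3% lower). The median log2 difference was -1.24 over these 50 genes and 0.02 over all genes tested. The former was -0.71 without GFP-negative replicate 1 and -0.61 with limma on RPKM. By role, 4 of 4 apical neutral and imino acid carriers and 2 of 2 chains of the cystine pair were lower, and 1 of 3 Slc43 uniporters was higher. In the same fractions, all 6 proximal tubule markers and 5 of 5 myeloid markers were lower in GFP-positive cells (medians -2.75 and -3.21), and all 6 principal markers were higher (median 2.15). Markers of the distal convoluted and connecting tubule were higher in 5 of 5 (median 3.12), and endothelial markers lower in 3 of 3 (median -2.30). With the deposited RPKM values and limma, 17 of 40 genes were called, 2 higher and 15 lower. The part of the marked cells in the differences below was not tested, and in bulk samples fewer cells of a type and less RNA per cell cannot be told apart.

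The cystine carrier chains fell together. Slc3a1 stood at 559 and 694 CPM in the GFP-negative and 92.7 and 65.9 in the GFP-positive samples (log2 difference -2.98, SE 0.23, adjusted p = 6.59e-05). Slc7a9 stood at 62.6 and 67.3 against 9.7 and 8.51 CPM (log2 difference -2.84, SE 0.21, adjusted p = 5.82e-05). Slc7a13 stood at 1812 and 2399 against 362 and 225 CPM (log2 difference -2.85, SE 0.29, adjusted p = 0.000159). For all 3 genes, every GFP-negative sample was far above both GFP-positive samples. Beside them, the proximal tubule markers Lrp2 and Slc34a1 had log2 differences of -2.73 and -2.78.

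The apical neutral amino acid carrier Slc6a18 stood at 829.8 and 1404 CPM in the GFP-negative and 116 and 98.2 in the GFP-positive samples (log2 difference -3.38, SE 0.28, adjusted p = 7.98e-05). Its neighbour Slc6a19, 1.72 kb away on chromosome 13, stood at 99.3 and 82.8 against 31 and 15.8 CPM (log2 difference -1.96, SE 0.31, adjusted p = 0.00162). Slc6a20b (-3.11 log2) and Slc6a20a (-3.19), which lie 2.2 kb apart on chromosome 9, also fell, Slc6a20a not with limma on RPKM (adjusted p = 0.0555). Slc1a1 fell from 552 and 639.6 to 110.4 and 74.4 CPM (log2 difference -2.69, SE 0.24, adjusted p = 9.43e-05). The GFP-negative and GFP-positive values of these 5 genes did not overlap. With 2 samples a group such a gap is common by chance, and its share over all genes was not counted.

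Other carriers lower in GFP-positive cells spread over several roles. Slc7a12, a light chain with no known heavy chain, had the largest fall among transporter genes that averaged 10 CPM or more in the higher group, but its GFP-negative samples lay far apart, at 15.2 and 87.5 CPM against 2.93 and 5.97 in the GFP-positive (log2 difference -3.53, SE 0.73, adjusted p = 0.00689). The neutral amino acid exchanger Slc1a4 stood at 62.4 and 60.6 against 11.6 and 5.73 CPM and the glutamine carrier Slc38a3 at 35.2 and 52.9 against 6.63 and 5.79. Slc38a3 is the basolateral glutamine carrier of the proximal tubule, and it was at 1 TPM in 0 of the 19 proximal tubule cells above. The neutral amino acid carrier Slc6a15 had a log2 difference of -2.58 and Slc7a7 one of -2.16, both called. The taurine carrier Slc6a6 fell (log2 difference -1.54, SE 0.22, adjusted p = 0.00097), from 871 and 1135 to 385 and 307 CPM. Slc7a15, with 13 and 17 counts in GFP-negative cells, had 0 in both GFP-positive samples, at least 5.01-fold lower with 3 counts per library as the floor.

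Slc43a2 had the largest rise in GFP-positive cells among transporter genes that averaged 10 CPM or more in the higher group. It stood at 428 and 403 CPM in GFP-positive and 114 and 104 in GFP-negative cells (log2 difference 1.93, SE 0.17, adjusted p = 0.000102). The other Slc43 genes fell, with log2 differences of -3.36 for Slc43a1 and -1.20 for Slc43a3. The exchanger Slc1a5 stood at 58.4 and 51.5 against 17.1 and 15.3 CPM (log2 difference 1.76, SE 0.21, adjusted p = 0.00039), opposite to its relative Slc1a4. The arginine and lysine carrier Slc7a1 stood at 70.9 and 80.2 against 27.9 and 26.8 CPM (log2 difference 1.46, SE 0.18, adjusted p = 0.00053). Both of these genes had GFP-positive values well above every GFP-negative value, but with limma on RPKM neither was called (adjusted p = 0.0502 and 0.0544).

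The betaine carrier Slc6a12, which brings an osmolyte into medullary cells, stood at 25.8 and 37.9 CPM in GFP-positive and 11.4 and 6.91 in GFP-negative cells (log2 difference 1.79, SE 0.32, adjusted p = 0.00332), and was not called with limma on RPKM (adjusted p = 0.179). Slc6a13 lies 5.34 kb from it on chromosome 6 and moved the other way, from 97 and 119 CPM in GFP-negative to 17.3 and 11.6 in GFP-positive cells (log2 difference -2.90, SE 0.24, adjusted p = 8.29e-05). The dopamine carrier Slc6a3 had 0 counts in both GFP-negative samples and 46 and 30 in the GFP-positive, at least 12.8-fold higher with the same floor.

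Partners of Slc3a2 split by light chain. Slc7a8 rose (1.09 log2, adjusted p = 0.00192) and so did Slc7a6 (1.47, adjusted p = 0.0079, 0.0638 without the GFP-positive replicate 2 and 0.676 with limma on RPKM), whereas Slc7a7 and the cystine and glutamate exchanger Slc7a11 (-4.34) fell. Slc3a2 itself stood at 131 and 106 CPM in GFP-negative and 123 and 97.5 in GFP-positive cells, overlapping ranges (log2 difference -0.11, SE 0.19, adjusted p = 0.699). Slc7a5 stood at 6.05 and 4.77 against 12.4 and 8.11 CPM (log2 difference 0.92, SE 0.35, adjusted p = 0.0784), which did not overlap but were not called, and Slc7a10 had at most 1 count in any sample. Slc38a2 (-0.02 log2) and Slc6a8 (-0.50) were not called either, and their ranges overlapped.

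**Figure D2:**
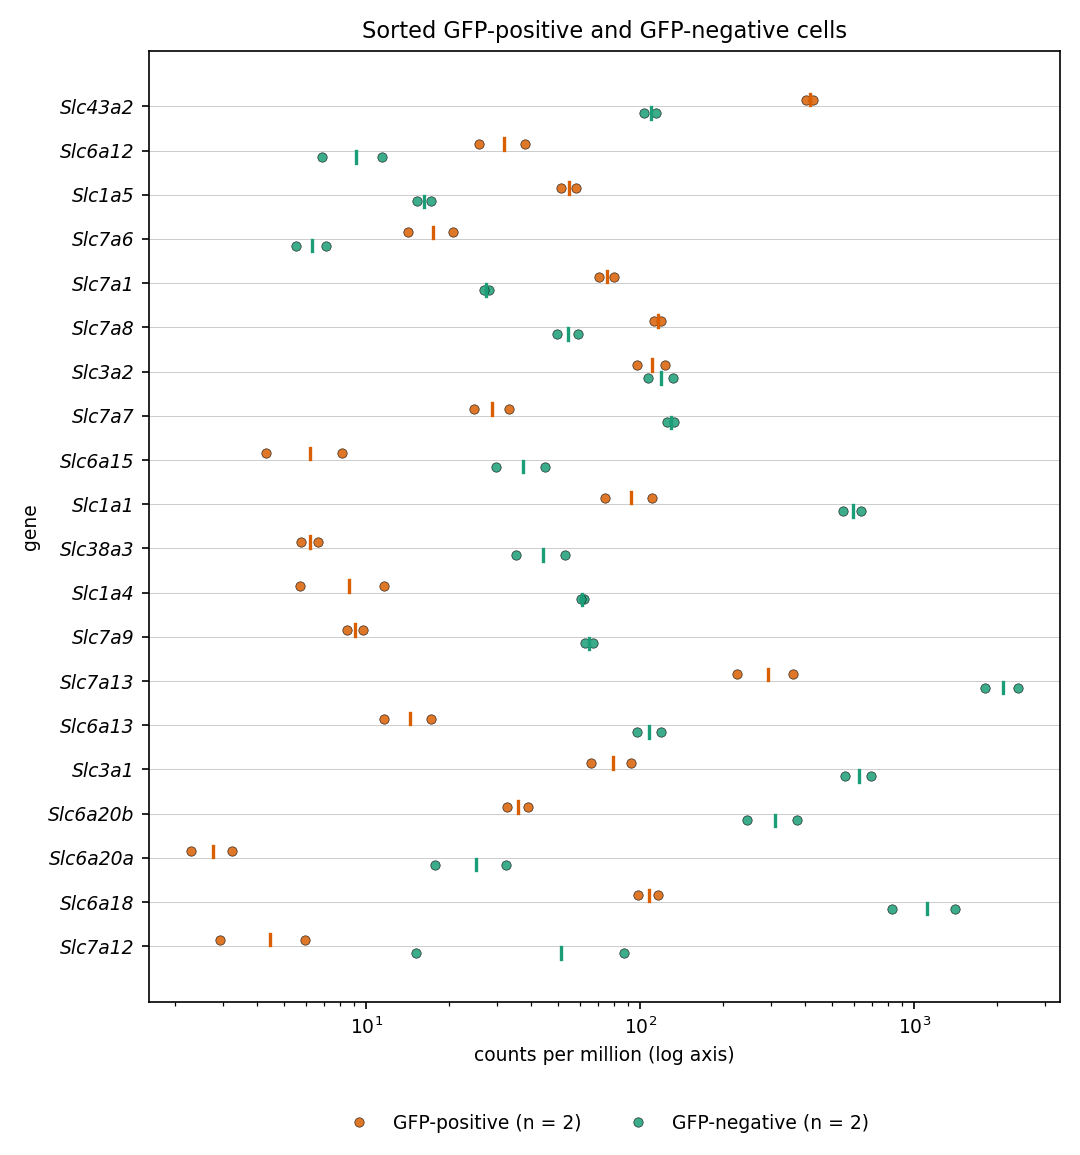
Level of 20 transporter genes (vertical axis, sorted by log2 difference) in CPM on a log axis, in 2 GFP-positive and 2 GFP-negative samples; each dot is a sample and each bar the group mean. GFP-positive dots lie to the right from Slc43a2 to Slc7a8, the groups overlap at Slc3a2, and GFP-positive dots lie to the left from Slc7a7 down.

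Genes around these carriers were taken from lists outside the family. Of 12 tested partners and other carriers, 2 were higher and 7 lower in GFP-positive cells: Tmem27, which brings Slc6a19 to the membrane, was at -2.61 log2. The peptide carrier Slc15a1 was higher (0 and 6 counts in GFP-negative, 229 and 116 in GFP-positive cells). Of 11 enzymes of amino acid use in the proximal tubule, 8 were lower and 0 higher, with Hpd at -2.75 and Agxt2 at -2.64. Of 8 brush border peptidases and glutathione enzymes, 5 were lower (Ggt1 -2.45) and 1 higher, the peptidase Mme (1.57). Of 8 glutamine and ammonia genes, 2 fell (Pck1 -2.97, Glul -1.32) and 2 rose (Got1 1.38, Got2 0.53). Of 11 stress and sensing genes 2 rose, among them the nutrient-sensing GTPase Rragd (2.12), and 2 fell, and of 4 osmolyte genes 2 rose (Slc5a3 1.30, Nfat5 0.90).

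Sorted c-Kit cells, rich in intercalated cell markers, were set against DBA cells, rich in principal cell markers. Of the 66 transporter genes, 42 averaged 1 TPM or more and were tested with limma on log2(TPM + 1). There, 8 were higher in c-Kit and 17 lower, or 59.5% called against 44.3% of 14341 genes (16.1% higher, 28.1% lower), with a median log2 difference of -0.39 over the 42 and -0.11 over all. Quantile normalization, which moved the median of all genes to 0.02, gave 12 higher and 13 lower. Without DBA replicate 1 or 2, 15 or 16 genes were called. Slc34a1 stood at 1177 and 1055 TPM in c-Kit and 2185 and 2289 in DBA cells, so both fractions held proximal tubule RNA, and 4 of 6 proximal tubule markers were lower in c-Kit. All 6 principal markers and 4 of 5 myeloid markers were lower in c-Kit, and both mast cell markers higher; the part of these cells in the differences was not tested.

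Slc43a2 also had the largest rise in c-Kit cells among transporter genes that averaged 10 TPM or more in the higher group. It stood at 279.7 and 268 TPM in c-Kit and 81.7 and 89.2 in DBA cells (log2 difference 1.67, SE 0.07, adjusted p = 1.21e-05). Slc43a3 stood at 35.1 and 39.9 against 18 and 20.8 TPM (log2 difference 0.92, SE 0.11, adjusted p = 0.000955) and Slc38a10 at 151 and 149.7 against 89.9 and 83.6 (log2 difference 0.79, SE 0.07, adjusted p = 0.000183). None of the 3 ranges overlapped, a gap that is common by chance with 2 samples a group. Its share over all genes was not counted. Slc38a1, low in both fractions, stood at 8.65 and 9.25 against 1.71 and 1.37 TPM (log2 difference 1.97, SE 0.18, adjusted p = 0.000237). Slc1a5 differed less, at 171 and 163 against 128 and 115 TPM (log2 difference 0.46, SE 0.08, adjusted p = 0.00337). Slc38a2 (0.30 log2) and Slc7a13 (0.48) passed with adjusted p = 0.0207 and 0.0437, and both were lost when c-Kit replicate 2 or any 1 DBA sample was left out, Slc38a2 also without c-Kit replicate 1. With all samples kept, both were lost with no variance trend, and Slc7a13 also with no filter.

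Several brush border carriers and the blood side carrier Slc7a7 were lower in c-Kit cells. Slc6a19 stood at 55.7 and 52.5 TPM in c-Kit and 126 and 138 in DBA cells (log2 difference -1.27, SE 0.08, adjusted p = 4.46e-05), and Slc7a7 at 46.6 and 41.4 against 116 and 119.5 (log2 difference -1.40, SE 0.08, adjusted p = 3.93e-05). Both chains of the cystine carrier fell, Slc7a9 from 103 and 95.3 TPM in DBA to 44.7 and 42.7 in c-Kit (-1.16 log2) and Slc3a1 from 118 and 119 to 69.8 and 68.9 (-0.76 log2). These 4 genes had no overlap between fractions, for which the share over all genes was likewise not counted. Slc7a13, the other partner of Slc3a1, was the exception, at 48.7 and 64.5 TPM in c-Kit and 36.2 and 44.1 in DBA cells. Slc6a18 (-0.28 log2, adjusted p = 0.156) and Slc6a20a (-0.36, adjusted p = 0.172) were not called, whereas Slc6a20b (-0.68) and Slc1a1 (-0.73) were.

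All 4 osmolyte and creatine carriers were lower in c-Kit cells, the call of Slc6a8 depending on the settings given below. The taurine carrier Slc6a6 stood at 73.3 and 72.9 TPM in c-Kit and 135 and 137 in DBA cells (log2 difference -0.89, SE 0.06, adjusted p = 7.92e-05). Slc6a13 stood at 27.7 and 24.5 against 48.6 and 45.8 TPM (-0.83 log2) and Slc6a12 at 1.24 and 0.41 against 4.99 and 6.44 (-1.91). The lysosomal glutamine carrier Slc38a7 (-0.84 log2, adjusted p = 0.0395) and Slc6a8 (-0.64, adjusted p = 0.0296) were lost without c-Kit replicate 2 and without any 1 DBA sample. With all samples kept, limma also lost both with no filter, quantile normalization or no variance trend (adjusted p = 0.0617 to 0.138). Slc38a4, low in both, stood at 0.83 and 0.98 against 7.97 and 7.26 TPM (-2.18 log2). The heavy chain Slc3a2 stood at 300.4 and 253 against 351 and 322 TPM (log2 difference -0.29, SE 0.09, adjusted p = 0.0472). This call was lost without the same samples and with no filter or no variance trend. Slc7a8 (-0.15 log2), Slc7a6 (0.36) and Slc7a5 (0.30) were not called, and Slc7a10 was listed at 0 in all 4 samples and Slc7a11 at 0.25 TPM or less. Under quantile normalization, limma called Slc7a6 and Slc7a5 (adjusted p = 0.0121 and 0.0346).

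**Figure D3:**
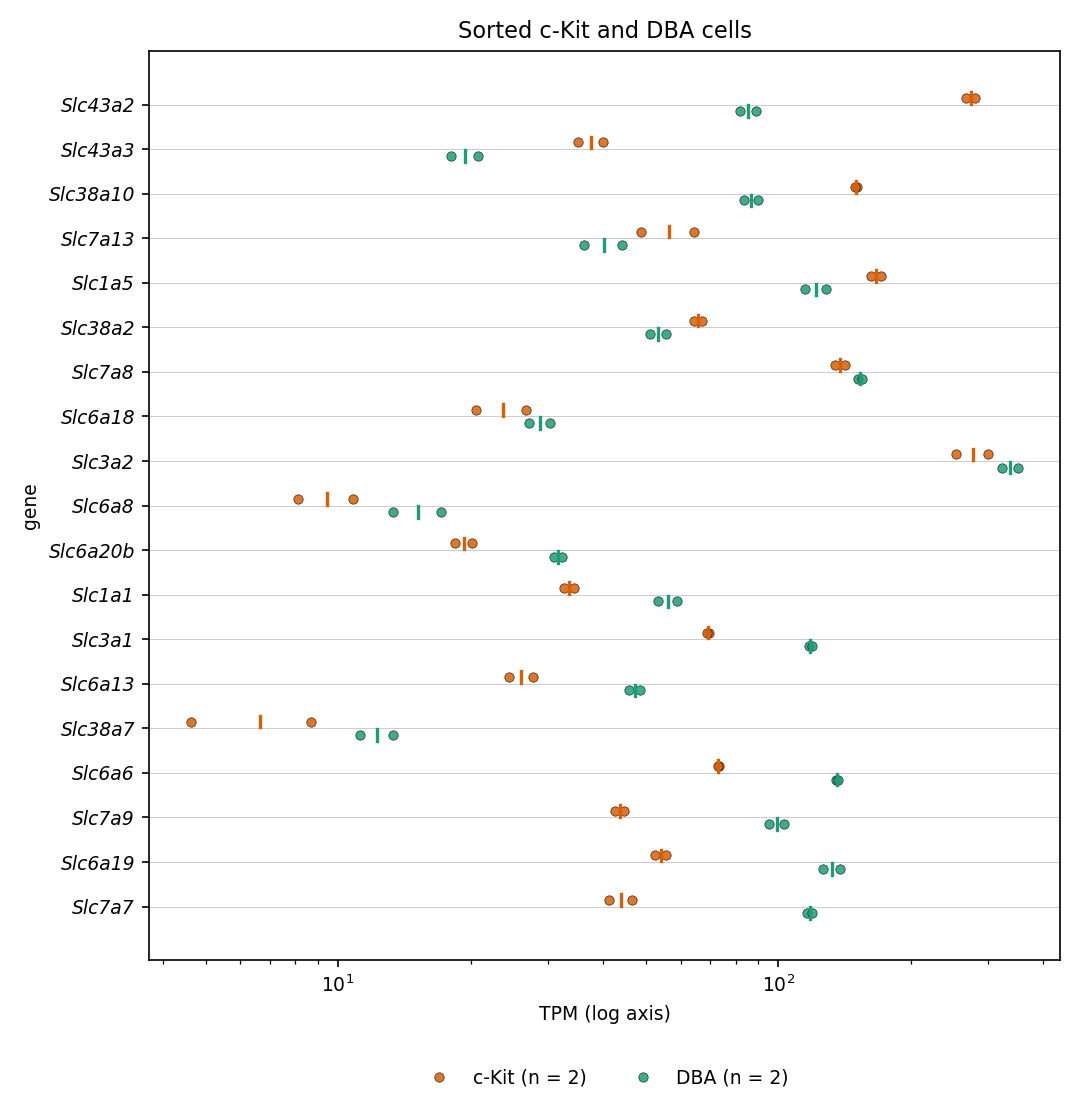
Level of 19 transporter genes (vertical axis, sorted by log2 difference) in TPM on a log axis, in 2 c-Kit and 2 DBA samples; each dot is a sample and each bar the group mean. c-Kit dots lie to the right from Slc43a2 to Slc38a2 and to the left from Slc7a8 down, with the widest gaps at Slc43a2 and Slc7a7.

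In the outside lists, 4 of 7 tested glutamine and ammonia genes were higher in c-Kit cells and 0 lower, led by the transaminase Got1 (1.31 log2). Of 11 enzymes of amino acid use 8 were lower, with the serine synthesis enzymes Psat1 (-1.68) and Phgdh (-1.62) first, and 2 higher. Of 8 peptidases and glutathione enzymes, 3 were higher, among them Mme (4.15) and Anpep (2.08), and 2 lower. Of 11 partners 4 were lower, among them Tmem27 (-0.77), and 1 higher, of 10 stress and sensing genes 2 were higher and 3 lower, and of 4 osmolyte genes 1 was higher and 2 lower.

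Dissected CCDs were set against cTALs. Of the 67 transporter genes 34 averaged 1 TPM or more and were tested; 5 were higher in CCD and 5 lower, or 29.4% called against 18.7% of 13520 genes (13.2% higher, 5.5% lower). The median log2 difference was -0.03 over the 34 and 0.31 over all genes, and quantile normalization, which moved these medians to -0.40 and -0.03, gave 4 higher and 8 lower. The median over the transporter genes ran from -0.36 (without m3_cTAL1) to 0.04 with each tubule left out. The table names its columns m1 to m7 with no key, so tubules may share an animal and the p-values may then be too small; with 1 mean per such prefix, 4 genes were higher and 1 lower. Without m4_CCD1 and m7_cTAL1, the tubules highest in proximal tubule markers, 3 were higher and 3 lower.

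The taurine carrier Slc6a6 (ENSMUSG00000030096, chr6:91684053-91759066 on GRCm38) set the segments apart. The 11 CCDs ran from 16.9 to 109 TPM (median 49.7) and the 8 cTALs from 0.01 to 9.84 TPM (median 1.44) (log2 difference 4.10, SE 0.48, adjusted p = 6.86e-07). The lowest CCD lay above the highest cTAL. Slc6a6 alone among the 34 genes had no overlap in either direction, a share not above the 5.51% of all genes tested. This gene was lower in the GFP-positive and c-Kit fractions.

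Both tested cationic carriers were higher in CCD. Slc7a1 ran from 9.41 to 35.9 TPM (median 16.2) in CCD and from 0.01 to 12.6 TPM (median 3.79) in cTAL (log2 difference 2.41, SE 0.51, adjusted p = 0.00135). Slc7a4, a relative for which transport is not well established, ran from 17 to 83.1 TPM (median 34.6) in CCD and from 0.04 to 44.4 TPM (median 13.1) in cTAL (log2 difference 1.65, SE 0.53, adjusted p = 0.0309). For Slc7a1 1 cTAL lay within the CCD range, and for Slc7a4 2 cTALs did. The Slc7a4 call was lost without any of m1_CCD1, m3_CCD1 or m6_cTAL1 (adjusted p = 0.0512, 0.0506 and 0.0598) and with 1 mean per prefix (0.121). In single cells, Slc7a4 had a mean of at most 4.01 TPM in any type.

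Slc43a3 ran from 2.54 to 125 TPM (median 20.5) in CCD and from 0.03 to 20.4 TPM (median 4.05) in cTAL (log2 difference 2.24, SE 0.64, adjusted p = 0.0146), with the ranges overlapping. Without m4_CCD1 and m7_cTAL1 its adjusted p was 0.0555. Slc43a2, higher in the GFP-positive and c-Kit fractions, did not separate the segments: it ran from 51.5 to 197 TPM (median 105) in CCD and from 82.9 to 142 TPM (median 109) in cTAL (log2 difference -0.17, SE 0.23, adjusted p = 0.674). Slc7a6 was higher in CCD (median 6.37 against 0.605 TPM; log2 difference 1.81, SE 0.44, adjusted p = 0.00484), and lost under quantile normalization. Slc3a2 ran from 155 to 255 TPM (median 201) in CCD and from 50 to 304 TPM (median 152) in cTAL (log2 difference 0.56, SE 0.23, adjusted p = 0.104), not called. Without m2_cTAL1 or with sample weights, limma called Slc3a2 (adjusted p = 0.0209 and 0.0299). Slc7a8, at medians of 47.7 and 48.9 TPM, Slc7a5 and Slc7a7 were not called, and Slc7a10 and Slc7a11 were below the tested level.

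Genes higher in cTAL included the creatine carrier Slc6a8, which ran from 0.08 to 22.8 TPM (median 4.71) in CCD and from 14.2 to 51.3 TPM (median 27.3) in cTAL (log2 difference -2.63, SE 0.57, adjusted p = 0.00168). Slc1a5 ran from 74.8 to 192 TPM (median 114) in CCD and from 96 to 271 TPM (median 217) in cTAL (log2 difference -0.78, SE 0.21, adjusted p = 0.0118). The vesicle carrier Slc6a17 ran from 0.23 to 23.2 TPM (median 2.78) in CCD and from 2.78 to 49.5 TPM (median 9.68) in cTAL (log2 difference -1.72, SE 0.57, adjusted p = 0.0391). All these ranges overlapped in part. The Slc1a5 call was lost with 1 mean per prefix (adjusted p = 0.133). Slc38a10, at medians of 63.7 and 103 TPM, and Slc38a1, at 0.25 and 2.93, were also lower in CCD (-0.78 and -1.60 log2). The Slc6a17 and Slc38a10 calls were lost in 11 and 12 of the 19 fits that left out 1 tubule (adjusted p = 0.0510 to 0.0923 and 0.0522 to 0.0955), and with 1 mean per prefix (0.138 and 0.237).

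**Figure D4:**
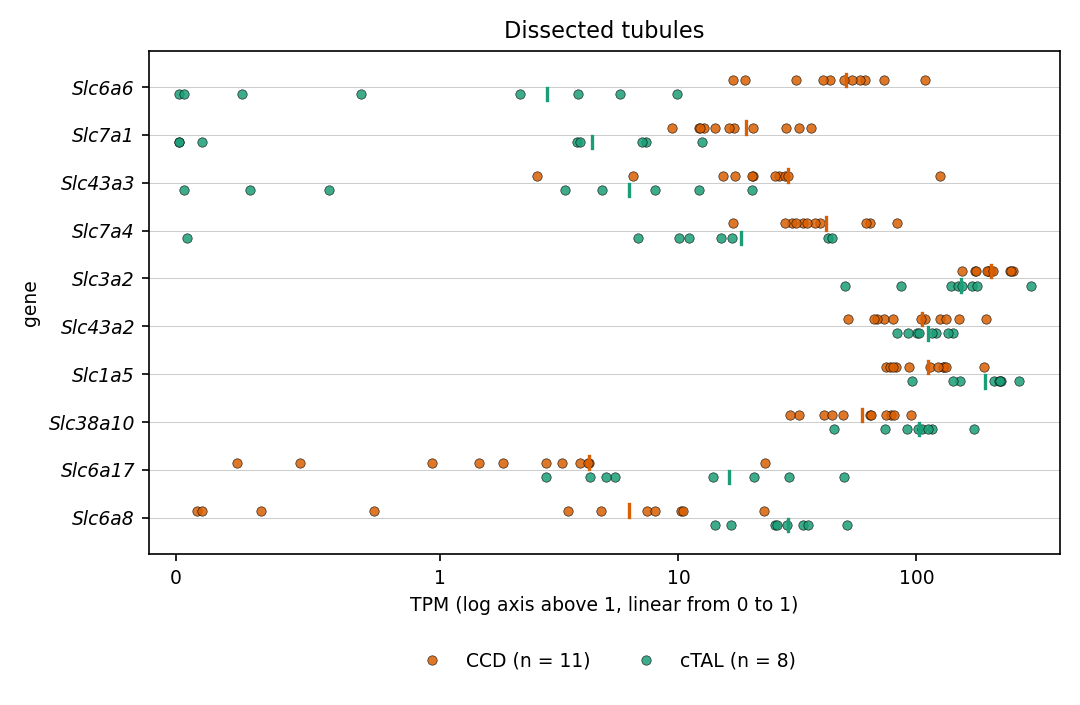
Level of 10 transporter genes (vertical axis, sorted by log2 difference) in TPM, linear from 0 to 1 and on a log axis above 1, in 11 CCD and 8 cTAL tubules; each dot is a tubule and each bar the group mean. The groups are apart at Slc6a6, overlap in part elsewhere and lie on each other at Slc43a2.

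Brush border carriers in the tubules varied with the proximal tubule markers. Slc3a1 ran from 0.06 to 113 TPM (median 4.98) in CCD and from 0 to 34 TPM (median 0.04) in cTAL, Slc7a13 from 2.88 to 167 TPM (median 22.4) and 0.06 to 35.9 TPM (median 12.1), and of the 3 tested apical neutral carriers, the cystine pair and Slc7a13 none was called. The tubule m4_CCD1 had the highest CCD values of Slc3a1, Slc7a13, Slc6a18 (67.7 TPM) and Slc7a9 (10.9 TPM) and of summed proximal tubule markers (877 TPM, CCD median 106). Among cTALs, m7_cTAL1 was highest in these markers (567 TPM, median 62.3). The summed TPM of the 8 genes that marked proximal tubule cells rose with the summed markers in CCD (Pearson r = 0.916, Spearman rho = 0.9, n = 11). In cTAL r was 0.847 and rho 0.905 (n = 8). These 2 relations are descriptions, since both sums come from 1 library per tubule. Without the 2 tubules farthest from the median of the markers, r was 0.758 and rho 0.833 in CCD. In cTAL r was then 0.549 and rho 0.771, so the linear relation in cTAL rested in part on the 2 m7 tubules. A prefix holds too few tubules for a value within it.

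**Figure D5:**
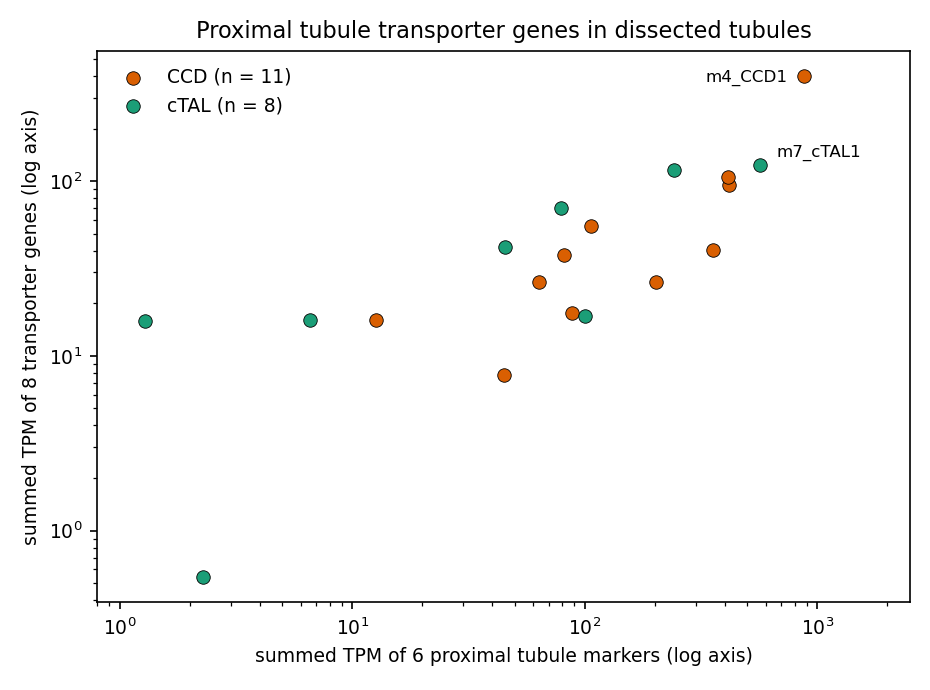
Summed TPM of 8 transporter genes that marked proximal tubule cells (vertical, log axis) against summed TPM of 6 proximal tubule markers (horizontal, log axis), 1 dot per dissected tubule. m4_CCD1 (400.4 TPM) and m7_cTAL1 (124 TPM) are the highest of their segments on both axes.

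Among genes outside the family, the peptidase of glutathione Ggt1 (-4.63 log2) was lower in CCD and the glutathione synthesis gene Gclc (1.42) higher, and 6 of the 8 genes of that list were not called. Of 11 tested partners 3 were lower, among them the peptide carrier Slc15a2 (-2.65), and 1 higher, the lysosomal Slc15a4 (2.37). The inositol carrier Slc5a3, an osmolyte gene, was lower in CCD (-3.49) while Slc6a6 was higher, and of 4 osmolyte genes the heat shock gene Hspa1b was the 1 higher (1.83). Of 10 enzymes of amino acid use 3 were higher, led by Psat1 (2.79), and 1 lower, Shmt1 (-3.19). Of 7 glutamine and ammonia genes 1 was higher, glutamine synthetase Glul (2.16), and 1 lower, and of 11 stress and sensing genes 2 were higher, Rptor (1.69) and Rragd (1.30), and 0 lower.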

How the data were processed

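Single-cell, sorted c-Kit and DBA, and tubule values were analysed as TPM, as deposited by the authors. The unit of the tubule table was read from its equal column sums. GFP samples were deposited as raw read counts per gene (HTSeq-count on RefSeq mm10, per the file headers and names) and as RPKM by the authors. STAR 2.5.1b, RSEM 1.2.31, Seurat and GRCm38.p5 are named per the submitters' processing notes, with no role or order. Reads that the counting assigned to no single gene, for any reason, took 66.7% to 72.8% of each GFP library and were left out. Strandedness of the counting was not given in the sources used here. Antisense genes (Slc36a1os, Slc36a3os, Slc6a19os) and overlapping genes are therefore uncertain, as are the near copies Slc6a20a and Slc6a20b. Unused per-sample columns numbered 0.

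Counts were tested with edgeR 4.0.16 (quasi-likelihood, TMM, default expression filter) and TPM with limma 3.58.1 on log2(TPM + 1), which understates changes of low genes, for genes averaging 1 TPM or more. Fits used all genes, with Benjamini-Hochberg adjustment and a threshold of 0.05. Of the transporter genes, 14 of 64 (GFP), 24 of 66 (c-Kit and DBA) and 33 of 67 (tubules) fell below the filters. Cell types are the authors' labels, no doublet caller was run, and cells could not be tied to their sort. Tables were normalized separately and not tested against each other. Coordinates come from GENCODE M21 (GRCm38). R 4.3.3, Python 3.11.15, scipy 1.17.1 and, as an alternative, DESeq2 1.42.0 were used, and scripts were tested on simulated data.

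The genes and lists were chosen with earlier results of these data known. Named were called genes averaging 10 CPM or TPM or more in the higher group, up to 12 a direction, genes of at least 20 TPM in a cell type, all chains of the heteromers and near copies. Genes named below those levels were chosen after their values were seen. Deviations of same-numbered samples or prefixes from their group means, gene by gene, correlated at 0.143 (GFP), 0.0264 (c-Kit and DBA) and 0.0154 to 0.159 (tubule prefixes). Numbers were therefore not taken as pairs. With 2 samples a group these deviations mirror each other, so the GFP and the c-Kit and DBA values cannot exclude pairing. Intervals are exact binomial at 95% and, like floors, cover counting error only.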

Additional observations from a re-analysis of the deposited data

Results flagged for a closer look

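In 18 transporter genes searched over the 8 cTALs, 3 had a highest tubule far from the rest. Chance gives about 1 in 20 such groups for normally distributed values, a shape that was not checked for these TPM. Slc7a9 reached 15.98 TPM in m7_cTAL1, the cTAL highest in summed proximal tubule markers. Slc6a20a was highest in the same tubule, at 0.03 TPM, a level near 0. Slc7a5 reached 14.54 TPM in m3_cTAL1.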

How the results depend on the processing

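The GFP count of 34 called genes was 32 to 37 with DESeq2, other size factors, other filters and the replicate block, 27 to 32 with each sample left out, and 17 with limma on RPKM. The c-Kit and DBA count of 25 was 20 to 26 under most settings, 16 with a mean of at least 10 TPM (21 genes tested), and 15 to 24 with each sample left out. The tubule count of 10 was 7 to 13 with other pseudocounts, filters, normalization and variance models (7 with no filter or a mean of at least 10 TPM, 12 with quantile normalization, 13 with sample weights) and 8 to 11 with each tubule left out. Added settings, chosen after seeing the data, gave 5 (mean per prefix) and 6 (without m4_CCD1 and m7_cTAL1). The cause was not tested. The replicate block gave 37 called genes for GFP, 26 for c-Kit and DBA, and the prefix as a block 11 for the tubules. It added a call for Slc7a5 in the GFP comparison (adjusted p = 0.0437, edgeR).

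Counts of genes that marked a cell type moved most. The proximal tubule count of 8 was 0 with medians, 5 with pseudocount 5 and 11 with a trimmed mean or pseudocount 0.1. The type B count of 1 was 0 with medians, trimmed means or pseudocount 5 and 2 with pseudocount 0.1. The non-epithelial count of 1 was 0 with medians or trimmed means and 2 with pseudocount 0.1. The principal count of 0 was 1 with a trimmed mean and 4 with pseudocount 0.1. Of 90 shares of cells, 67 moved when any TPM above 0 counted and 24 when 10 TPM was asked.

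Signs turned for 5 genes, none called in that comparison. Slc3a2 in the GFP comparison ran from -0.32 to 0.052 (log2) with each sample left out, above 0 when GFP-negative replicate 1 or GFP-positive replicate 2 was out. In tubules Slc7a9 ran from -0.59 to 0.14 with each tubule left out, above 0 without m7_cTAL1, and was 0.021 with the mean per prefix. Slc7a5 was -0.023 with pseudocount 5, -0.22 with quantile normalization, -0.10 with the prefix as a fixed block, -0.10 with the mean per prefix and -0.039 without m4_CCD1 and m7_cTAL1. Slc7a8 was -0.25 with quantile normalization and ran from -0.33 (without m3_cTAL1) to 0.34 with each tubule left out, and Slc6a20b was -0.042 with quantile normalization. With limma on RPKM, Slc6a12, Slc1a5, Slc7a6, Slc7a1 and Slc6a20a were no longer called (adjusted p = 0.0502 to 0.676). TPM keeps no depth, so the limit of detection of low genes is unknown.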
